A study of Mus musculus with 10 samples.

Results

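The levels of 9 genes of retinoic acid metabolism and signalling were followed in 10 mouse retinas. They were the retinaldehyde dehydrogenases Aldh1a1, Aldh1a2 and Aldh1a3, the binding protein Crabp1, the hydroxylases Cyp26a1 and Cyp26b1, and the nuclear receptors Rara, Rarb and Rxra. Members were chosen by symbol, and are 9 of the 25905 genes in the table. The retinas came from 5 wild-type C57BL/6J mice numbered 61, 64, 65, 66 and 68, at postnatal day 34. From postnatal day 24, a lens of -20 dioptres stood before 1 eye of each mouse for 10 days, and the other eye had none. The labels give the side of a retina but not which eye had the lens. The groups are therefore 5 right retinas and 5 left retinas, and whether a side holds lens-wearing eyes, untreated eyes or both is not known. Libraries were made from total RNA of whole retinas depleted of ribosomal RNA.

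Retinoic acid is made from vitamin A by oxidation of retinol to retinaldehyde and then, by the Aldh1a enzymes, of retinaldehyde to the acid. Inside the cell it is held by Crabp proteins, it is broken down by Cyp26 enzymes, and it acts by binding RAR receptors, which sit on DNA as pairs with RXR receptors. In the eye it patterns the developing retina, where Aldh1a1 marks the dorsal and Aldh1a3 the ventral part in the mouse embryo, and in postnatal animals it has been studied as a signal that could pass from the retina to the choroid and sclera during eye growth.

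Receptor pairs bind 2 copies of a short hexamer, and a spacing of 5 bases (a direct repeat called DR5) is the classical response element. Among the members, the promoters of Rarb and Cyp26a1, which are textbook targets of the hormone, held such a repeat. Each is shown as 30 bases of the gene's own strand from RefSeq on GRCm38.p6, with both hexamers in capitals.

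Rarb, chr14:16575506-16575535, minus strand: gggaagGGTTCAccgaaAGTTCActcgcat
Cyp26a1, chr19:37697770-37697799, plus strand: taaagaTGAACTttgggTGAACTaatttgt

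The repeat of Rarb read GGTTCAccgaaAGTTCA and lay 37 to 53 bases before the RefSeq start. The repeat of Cyp26a1 read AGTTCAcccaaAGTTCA on the other strand and lay 16 to 32 bases before the start. The search covered 300 bases around each start, 250 before and 50 after, on both strands, for 4 hexamers, AGGTCA or its variants AGTTCA or GGGTCA or GGTTCA. A DR5 of these hexamers was found in 32 of 32851 such windows, or 0.0974%, whereas a single hexamer was found in 43.7% of them. Windows were held for 8 of the 9 members, 13 windows in all, with none for Aldh1a3, and no window of the other 6 members had these letters in a DR5. The 240 bases before the GENCODE start of Cyp26a1, chr19:37697558-37697797 on the plus strand, are printed with the same hexamers in capitals, because this enzyme is the hormone's own feedback brake.

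Cyp26a1 upstream: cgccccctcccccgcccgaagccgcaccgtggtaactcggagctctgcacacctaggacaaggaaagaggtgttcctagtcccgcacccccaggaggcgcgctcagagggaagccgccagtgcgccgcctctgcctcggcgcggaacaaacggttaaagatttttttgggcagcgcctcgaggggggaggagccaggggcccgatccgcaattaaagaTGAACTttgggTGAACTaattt

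The unit is CPM: each library's counts were scaled to one shared total, without division by gene length. The libraries rested on 89660000 to 113800000 counts, so that 1 CPM stood for 89.7 to 113.8 counts. The genes in the table summed to only 321661 to 346696 CPM per library, and the other counts lay outside it. All 90 values of the 9 members were whole counts within a tolerance of 0.1 once divided by the value of 1 count, so their counts are known. The tissue matched its label: the 6 bipolar cell genes summed to 338.8 to 363.7 CPM on the right and 335.0 to 364.4 CPM on the left, and the corneal keratin Krt12 was at 0.0537 to 0.253 CPM. Libraries also differed in tissue from next to the retina. The summed level of 14 lens genes was 34.1 to 885.8 CPM on the right, with the highest value in mouse 65, and 11.7 to 66.7 CPM on the left. The 10 fibroblast genes of sclera and choroid summed to 23.4 to 28.3 CPM on the right and 15.5 to 21.6 CPM on the left, without overlap. Muscle genes summed to 80.7 CPM in mouse 68 on the left and to at most 4.46 CPM in the other 9 libraries. Summed CPM of a list cannot tell fewer cells of a type from less RNA per cell, and the same holds for every gene below.

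Among the 9 members, the receptors and Crabp1 stood above the enzymes, Aldh1a1 excepted. Per kilobase of exon (GENCODE M21, all exons of a gene merged), Rxra was highest at 3.17 ± 0.373 CPM per kb (SD over 10 retinas), followed by Aldh1a1 at 2.18 ± 0.368, Crabp1 at 1.80 ± 0.272 and Rara at 1.52 ± 0.157 CPM per kb. Neighbours among these 4 overlapped in their ranges. Rarb stood apart from both neighbours at 0.57 ± 0.0999 CPM per kb. Below it came Cyp26a1 at 0.183 ± 0.073, Cyp26b1 at 0.0859 ± 0.0202, Aldh1a3 at 0.0501 ± 0.0232 and Aldh1a2 at 0.0338 ± 0.0223 CPM per kb, again with overlapping neighbours.

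**Figure D1:**
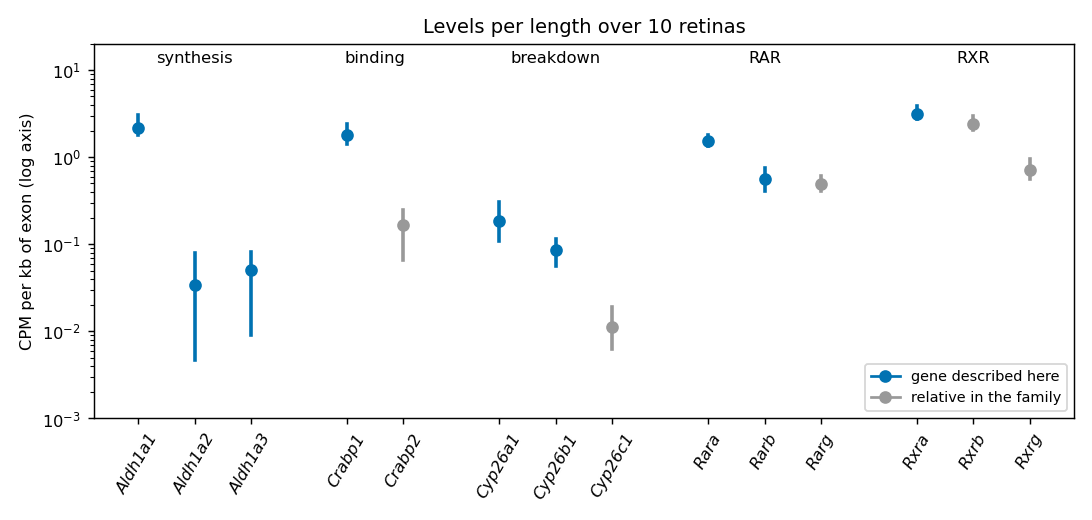
Level per length of the 9 genes (blue) and of their closest relatives (grey), as CPM per kb of exon on a log axis. Points are means and bars the lowest and highest of 10 retinas. Aldh1a1 lies above Aldh1a2 and Aldh1a3, and the Cyp26 enzymes lie below the receptors.

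Of the summed level per length of the 3 retinaldehyde dehydrogenases, Aldh1a1 made up 96.3% ± 1.57, with a range of 93.4% to 99.3% over the 10 retinas. Of the 3 Cyp26 enzymes, Cyp26a1 made up 63.7% ± 10.2 and Cyp26b1 32.2% ± 10.0, which left 4.07% ± 1.45 for Cyp26c1. Rara made up 58.9% ± 2.59 and Rarb 21.9% ± 2.15 of the 3 RAR genes. Rxra made up 50.6% ± 1.86 of the 3 RXR genes, ahead of Rxrb at 38.1% ± 1.76. Crabp1 made up 91.5% ± 2.47 of the 2 Crabp genes. The synthetic enzymes summed to 2.07 to 3.17 CPM per kb in right retinas and 1.83 to 2.52 CPM per kb in left retinas. The catabolic enzymes Cyp26a1 and Cyp26b1 summed to 0.195 to 0.397 CPM per kb on the right and 0.208 to 0.372 CPM per kb on the left.

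Of the members, 5 reached a mean of 1 CPM and entered the fit of 14210 genes, namely Aldh1a1, Crabp1, Rara, Rarb and Rxra. Right minus left was fitted with limma on log2(CPM + 1) with the mouse as a block, and p-values were adjusted by Benjamini-Hochberg over all genes in the fit. None of the 5 passed at an adjusted p of 0.05, where 0% of all tested genes did. None of them had an unadjusted p under 0.05 either, against 333 of all tested genes, or 2.34%. Of the 5, 2 were higher and 3 lower on the right, with a median difference of -0.06 log2 units, beside a median of 0.0017 over all tested genes. The 4 members under the filter (Aldh1a2, Aldh1a3, Cyp26a1 and Cyp26b1) were fitted with genes of every level, and none of these passed. Mice are the replicates of these comparisons, and with 5 pairs the exact two-sided sign-flip permutation test of a single gene cannot go below p = 0.0625.

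**Figure D2:**
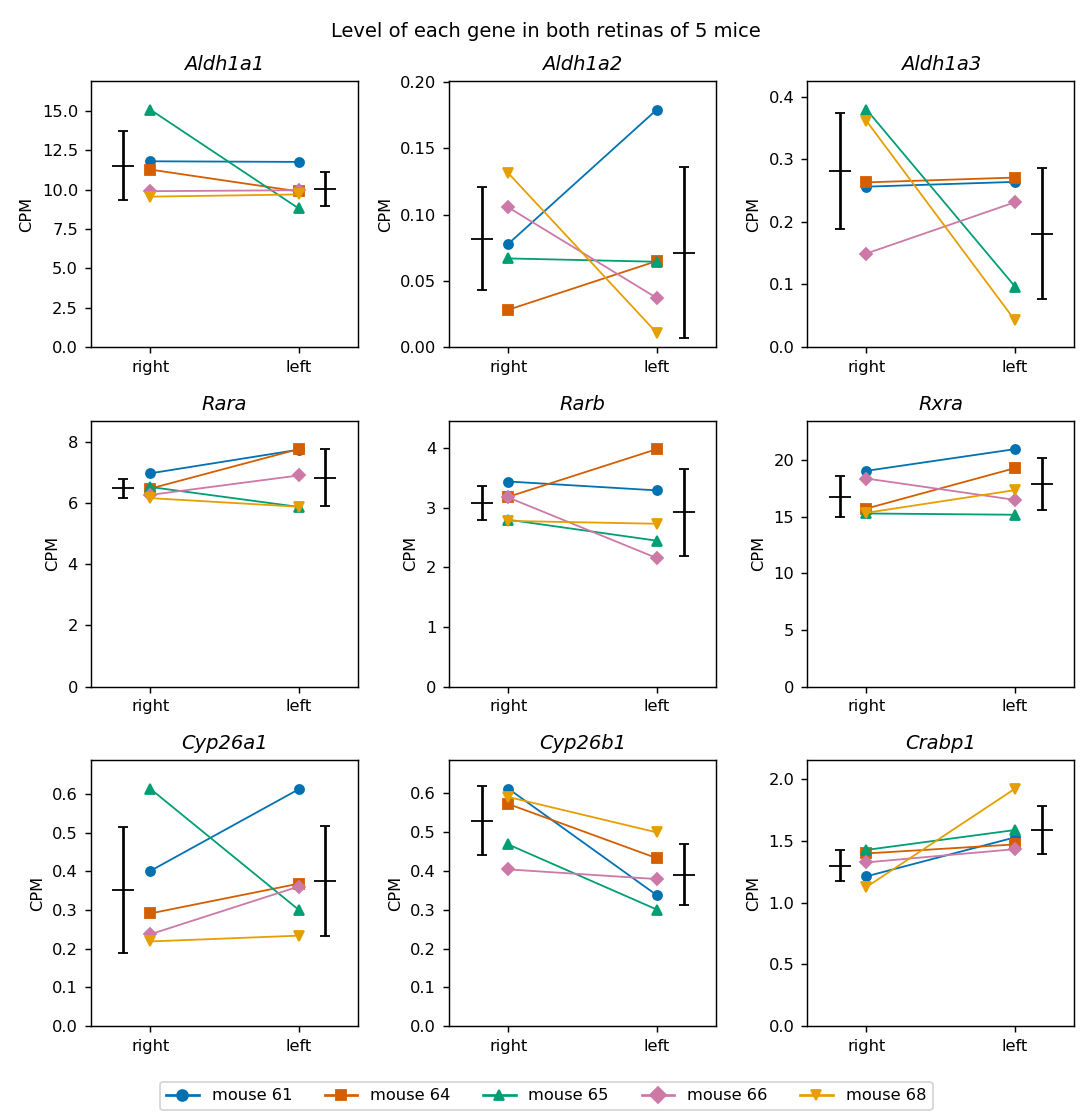
CPM of each gene in the right and left retina of 5 mice, with a line joining the eyes of a mouse; black marks are the mean and SD of 5 retinas. Crabp1 is lower on the right in every mouse and Cyp26b1 higher, whereas each of the other 7 genes has mice in both directions.

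Aldh1a1, the main retinaldehyde dehydrogenase here, lies on chromosome 19 (bases 20492715 to 20643465 of GRCm38, plus strand). Right retinas of mice 61, 64, 65, 66 and 68 held it at 11.8, 11.3, 15.1, 9.91 and 9.56 CPM, against 11.8, 9.89, 8.81, 9.97 and 9.70 CPM in the left retinas of the same mice. The right retina of mouse 65 held the highest value and its fellow eye the lowest, and the other 8 retinas lay between them. Right retinas averaged 11.5 ± 2.20 CPM and left retinas 10.0 ± 1.08 CPM (SD, n = 5 each). The difference was 0.17 log2 units (SE 0.10, 95% interval -0.05 to 0.39, limma adjusted p = 0.9996), with 3 of 5 mice higher on the right. It was 0.71 log2 units in mouse 65, 0.17 in mouse 64 and -0.019 to 0.0045 in mice 61, 66 and 68. Without mouse 65 it was 0.04 log2 units.

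A second test asked how far fellow eyes differed whichever the side, since 1 eye of each mouse had the lens. It sets the size of a gene's 5 differences between fellow eyes, as a root mean square, against that of genes of like level (one-sided F distribution, Benjamini-Hochberg over 14210 genes). No member passed, where 0.338% of tested genes did. Of the 5 members in this fit, only Aldh1a1 had an unadjusted p under 0.05, where 4.71% of tested genes had one. Its root mean square was 0.33 log2 units (unadjusted p = 0.0138, adjusted p = 0.703 from limma's variance prior), and without mouse 65 it was 0.0874 log2 units. The other 4 lay at 0.15 for Rara, 0.17 for Rxra, 0.22 for Rarb and 0.23 for Crabp1, beside a median of 0.13 log2 units over all tested genes. Crabp1 was at 0.11 without mouse 68, and Rarb at 0.15 without mouse 66. The 4 members under the filter were tested in the same way among genes of every level, and none passed. Of these 4, only Aldh1a3 had an unadjusted p under 0.05, with a root mean square of 0.23 log2 units. Its unadjusted p was 0.0206 and its adjusted p 0.989, from limma's variance prior. How many genes of every level had such an unadjusted p is not given here. Aldh1a2 lay at 0.10, Cyp26b1 at 0.16 and Cyp26a1 at 0.18 log2 units.

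**Figure D3:**
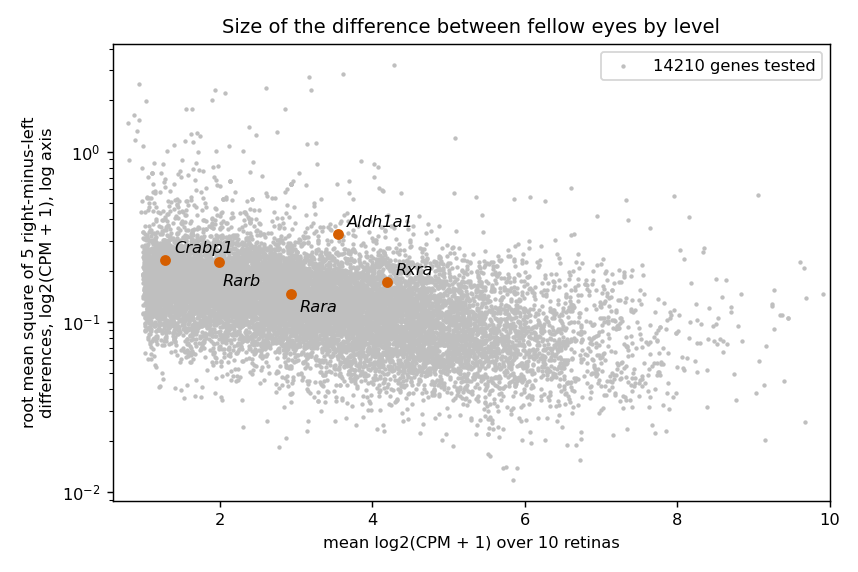
Root mean square difference between the eyes of 5 mice (log axis) against mean level, both on log2(CPM + 1), for 14210 genes (grey) and the 5 members in the fit (orange). Aldh1a1 at 0.33 lies in the upper part of the cloud at its level, with other genes above it, and the other 4 members also lie within the cloud.

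The genes whose levels ran most like those of Aldh1a1 over the 10 retinas were Fstl1, a secreted glycoprotein (Pearson r = 0.93), Gstm1, a glutathione transferase (r = 0.93), and Vim, an intermediate filament of Müller glia (r = 0.90). The 10 points are 5 pairs of fellow eyes, and these 3 were the highest of 11848 named genes, so the r values are a description. Without the 2 retinas farthest from the median of Aldh1a1 they were 0.82, 0.86 and 0.79. Vim peaked in mouse 65, at 39.1 CPM in its right eye, and measured 22.1 to 29.5 CPM in the other 9 retinas. In that mouse the 7 Müller glia genes summed to 907.4 CPM on the right and 793.4 CPM on the left, the 11 pigment epithelium genes to 182.3 and 138.6 CPM, and the lens genes to 885.8 and 11.7 CPM. The highest Müller glia sum was not in mouse 65 but in the left retina of mouse 61, at 924.7 CPM. The part of these tissues in the level of Aldh1a1 was not tested. Aldh1a7, a neighbouring copy of Aldh1a1, shared 151 of 4934 stretches of 50 bases with it (3.06%) and was at 0.962 ± 0.18 CPM on the right and 0.892 ± 0.103 CPM on the left. Reads in those stretches could have been assigned to either gene.

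Aldh1a3 (chromosome 7, bases 66390890 to 66427517, minus strand) was at 0.256, 0.263, 0.379, 0.149 and 0.361 CPM in the right retinas, against 0.264, 0.271, 0.0966, 0.231 and 0.0425 CPM in the left retinas of mice 61, 64, 65, 66 and 68. These values rest on 17 to 34 counts per library on the right and 4 to 25 counts on the left. The left retinas of mice 65 and 68 were the lowest of the 10 and their fellow eyes the highest, and the groups overlapped. The difference was 0.12 log2 units (SE 0.07, 95% interval -0.04 to 0.28, limma adjusted p = 0.9996 among genes of every level), with 2 of 5 mice higher on the right. It was 0.33 in mouse 65 and 0.38 in mouse 68, -0.01 in both mouse 61 and mouse 64 and -0.10 in mouse 66. Without mice 65 and 68 it was -0.04 log2 units. The added 1 CPM shrinks differences at this level, and adding 0.1 CPM gave 0.50 (SE 0.29) over all mice. As ratios of CPM, right over left, mouse 65 stood at 3.92 and mouse 68 at 8.49. Mice 61 and 64 stood at 0.97 and mouse 66 at 0.65.

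The left retinas of mice 65 and 68 were also those with the least of Optc, a proteoglycan made by the ciliary body. Optc was at 7.51, 16.0, 10.3, 4.95 and 8.47 CPM on the right, against 12.6, 12.3, 0.505, 8.45 and 0.606 CPM on the left. Over the whole list of 9 iris and ciliary body genes, the sum was 33.7 to 50.5 CPM on the right and 29.6 to 46.9 CPM on the left. The left retinas of mice 65 and 68 had the 2 lowest sums, at 29.6 and 32.5 CPM. Optc is itself in this list, so the sums are not separate from it. The right retina of mouse 66 was close to them at 33.7 CPM. The match was not particular to this list. The left retinas of mice 65 and 68 also had the lowest sums of pigment epithelium genes, at 138.6 and 137.2 CPM. The same held for fibroblast genes, at 15.5 and 16.4 CPM, and lens genes, at 11.7 and 28.0 CPM. It did not hold for every list: the lowest Müller glia sum was 776.3 CPM, in the left retina of mouse 66. The part of any of these tissues in the level of Aldh1a3 was not tested.

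Aldh1a2 (chromosome 9, bases 71215789 to 71296243, plus strand), an enzyme best known from mesenchyme, was close to the limit of detection. It was at 0.0779, 0.0282, 0.0669, 0.105 and 0.131 CPM in right retinas, against 0.179, 0.065, 0.0644, 0.037 and 0.0106 CPM in left retinas. The 10 libraries held 1 to 17 counts each, 74 in all. On the left, the single count of mouse 68 has an exact 95% Poisson interval of 0.000269 to 0.0592 CPM and the 17 counts of mouse 61 one of 0.104 to 0.287 CPM, both for counting error only. Over the 10 libraries the coefficient of variation was 66% where counting alone gives 36.7%. Sides overlapped fully, and the difference of 0.02 log2 units (SE 0.04) had 3 of 5 mice higher on the right.

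Crabp1, a cytosolic carrier of retinoic acid, was lower on the right in each of the 5 mice. The gene lies on chromosome 9 (bases 54764748 to 54773110, plus strand). It was at 1.214, 1.399, 1.428, 1.327 and 1.127 CPM in the right retinas of mice 61, 64, 65, 66 and 68, against 1.53, 1.472, 1.589, 1.434 and 1.924 CPM in the left retinas. Every right retina was below every left retina, but the highest on the right, at 1.428 CPM, and the lowest on the left, at 1.434 CPM, differed by less than the value of 1 count. Of all tested genes, 0.12% had all right retinas below all left ones. Right retinas averaged 1.30 ± 0.127 CPM and left retinas 1.59 ± 0.196 CPM (SD, n = 5 each), on 103 to 181 counts per library. The difference was -0.17 log2 units (SE 0.08, 95% interval -0.35 to 0.01), with 5 of 5 mice lower on the right, as were 2.01% of tested genes. It did not pass (unadjusted p = 0.0573, limma adjusted p = 0.9996; exact sign-flip permutation p = 0.0625, the smallest that 5 pairs can give).

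Among mice the difference of Crabp1 ran from -0.46 log2 units in mouse 68 and -0.19 in mouse 61 to -0.09 in mouse 65, -0.06 in mouse 66 and -0.04 in mouse 64. Without mouse 68 the value was -0.10 log2 units. Adding 0.1 CPM before the logarithm gave -0.27 and adding 5 CPM gave -0.06, the smaller constant being nearer to the ratio of the means of right over left of 0.817. The 6 amacrine cell genes summed to 270.8 to 277.4 CPM on the right and 266.4 to 288.5 CPM on the left, so that the sides overlapped. The 6 ganglion cell genes summed to 183.97 to 209.5 CPM on the right and 182.1 to 223.8 CPM on the left. The fibroblast sums, which were higher on the right, had the opposite direction to Crabp1, and their part in it was not tested. Most like Crabp1 over the 10 retinas were Mrps12 (r = 0.88), Ppfia4 (r = 0.87) and Iffo1 (r = 0.86). These r values were lower than for the other members in the fit, and without the 2 retinas farthest from its median they were 0.71, 0.79 and 0.63. By rank (Spearman), Mrps12, Ppfia4 and Iffo1 stood at 0.85, 0.85 and 0.36 with Crabp1. Crabp2, its relative, lay under the filter at 0.213 CPM on the right and 0.227 CPM on the left.

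**Figure D4:**
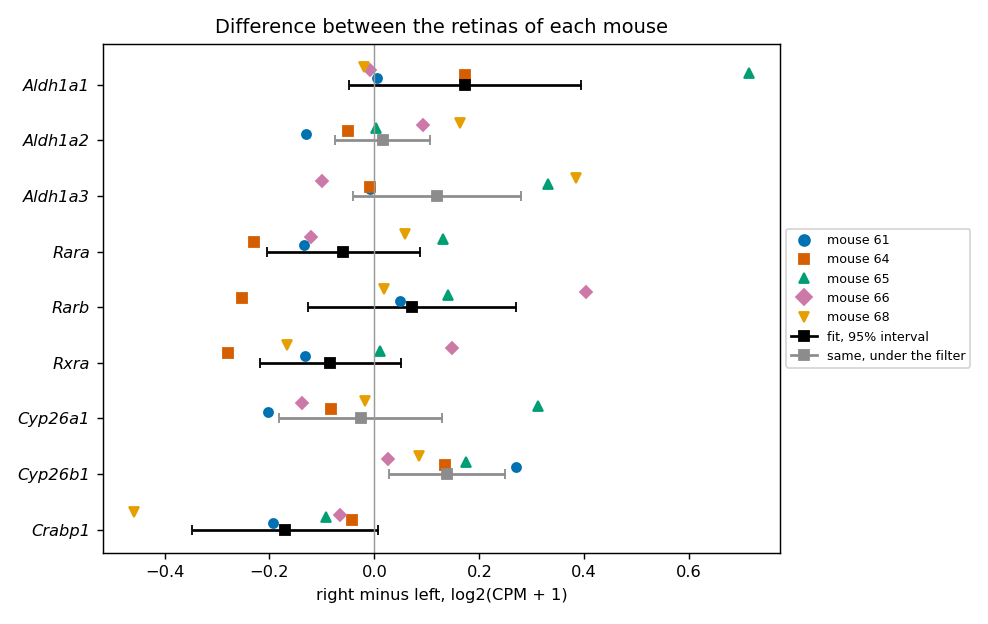
Right minus left on log2(CPM + 1) for each gene. Coloured symbols are the 5 mice, squares with bars the fitted difference with its 95% interval (black in the fit of 14210 genes, grey for genes under the filter, fitted with genes of every level). The mice of Crabp1 all lie below 0 and those of Cyp26b1 all above it, and Aldh1a1 has 1 mouse, 65, far from the others.

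Cyp26b1 and Cyp26a1 hydroxylate retinoic acid and so clear it. Cyp26b1 (chromosome 6, bases 84571414 to 84593908, minus strand) was at 0.612, 0.573, 0.468, 0.404 and 0.591 CPM in right retinas, against 0.338, 0.433, 0.301, 0.379 and 0.500 CPM in left retinas of mice 61, 64, 65, 66 and 68. Each right retina was above its fellow eye, while the ranges of the sides overlapped. The means were 0.53 ± 0.0894 CPM on the right and 0.39 ± 0.0786 CPM on the left (SD, n = 5 each), on 28 to 61 counts per library. The ratio of the means, right over left, was 1.36. On log2(CPM + 1), a scale that understates the change of low genes, the difference was 0.14 (SE 0.05, 95% interval 0.03 to 0.25). It did not pass (limma unadjusted p = 0.0202 and adjusted p = 0.9996 among genes of every level, exact sign-flip permutation p = 0.0625). With 0.1 CPM added in place of 1 CPM the difference was 0.36. Of the genes with a mean from 0.1 to 1 CPM, 3.24% were higher on the right in 5 of 5 mice and 2.39% lower. Counting error is large at this level: over the 10 libraries the coefficient of variation was 23.5%, where counting alone gives 15.0%. The fibroblast genes, whose sums were higher on the right without overlap, shared the direction of Cyp26b1 but not its order of mice. Their largest differences on log2(CPM + 1) were 0.79 in mouse 65 and 0.75 in mouse 68, and that of Cyp26b1 was 0.27 in mouse 61. These sizes cannot be compared, because the added 1 CPM shrinks the difference of the lower Cyp26b1 more. As a ratio of CPM, right over left, Cyp26b1 stood at 1.81 in mouse 61. The fibroblast sums of mouse 65 were 27.6 CPM on the right and 15.5 CPM on the left. Their part in the level of Cyp26b1 was not tested.

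Cyp26a1 (chromosome 19, bases 37697798 to 37701536, plus strand) had no common direction across the mice. It was at 0.401, 0.291, 0.613, 0.237 and 0.219 CPM in right retinas, against 0.612, 0.368, 0.301, 0.361 and 0.234 CPM in left retinas. In 4 mice it was lower on the right, and mouse 65 was higher by 0.31 log2 units. The 2 highest retinas were the right one of mouse 65 and the left one of mouse 61, so that each side held 1 of them. The difference was -0.03 log2 units (SE 0.07, 95% interval -0.18 to 0.13). Its spread was wide for its depth of 20 to 58 counts, with a coefficient of variation of 39.8% where counting alone gives 16.9%. In mouse 65 Aldh1a1 and Aldh1a3 were also higher on the right, as was Aldh1a1 in mice 61 and 64 and Aldh1a3 in mouse 68. The third enzyme of the family, Cyp26c1, was at 0.0203 CPM on the right and 0.0186 CPM on the left.

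Among the receptors, Rxra, the partner receptor (chromosome 2, bases 27676440 to 27762957, plus strand), was at 19.1, 15.7, 15.3, 18.4 and 15.4 CPM in right retinas, against 21.0, 19.3, 15.2, 16.5 and 17.4 CPM in left retinas. Both retinas of mouse 65 were low and both of mouse 61 high. The difference was -0.08 log2 units (SE 0.06, 95% interval -0.22 to 0.05), with 2 of 5 mice higher on the right. Rara (chromosome 11, bases 98927818 to 98974942, plus strand), a receptor of retinoic acid, was at 6.97, 6.47, 6.52, 6.27 and 6.16 CPM in right retinas, against 7.74, 7.76, 5.87, 6.90 and 5.88 CPM in left retinas. Of the left retinas, 2 lay above the range of the right ones, 2 below it and 1, that of mouse 66, within it. The difference was -0.06 log2 units (SE 0.07, 95% interval -0.20 to 0.09), again with 2 of 5 mice higher on the right. Without mouse 64 the differences were -0.02 log2 units for Rara and -0.04 for Rxra.

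Rarb, the receptor gene with the response element in its promoter (chromosome 14, bases 16430839 to 16819156, minus strand), was at 3.44, 3.18, 2.80, 3.17 and 2.78 CPM in right retinas, against 3.29, 3.98, 2.45, 2.16 and 2.73 CPM in left retinas. The left retinas of mice 64 and 66 were the highest and the lowest of the 10. The difference was 0.07 log2 units (SE 0.09, 95% interval -0.13 to 0.27), with 4 of 5 mice higher on the right, and without mouse 66 it was -0.01. The 3' end of Rarb overlaps that of Top2b on the other strand by 4624 bases, and 34.1% of the stretches of 50 bases in Rarb transcripts also occur in transcripts of other genes, chiefly this one. Top2b was at 166.9 ± 8.36 CPM on the right and 167.4 ± 7.33 CPM on the left, far above Rarb. The library kit keeps the strand, and whether counting used it is not given in the sources used here. Over the 10 retinas the r of Rarb with Top2b was -0.41.

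Between mice, limma's moderated F-test called none of the 5 members, where 0.57% of tested genes passed. Rxra was the only one with an unadjusted p under 0.05 (limma adjusted p = 0.329, unadjusted p = 0.0318 in limma's fit across all genes), where 13.8% of tested genes had one. Its mouse means spanned 0.37 log2 units, beside 0.34 for Rarb, 0.27 for Aldh1a1, 0.25 for Rara and 0.08 for Crabp1, and beside a median of 0.21 log2 units over all tested genes. Without mouse 61 the span of Rxra was 0.18 log2 units. The mouse took 67.5% of the sum of squares of Rxra, 63.4% of Rara and 61.8% of Rarb, but 29.2% of Aldh1a1 and 8.06% of Crabp1. The side took 50.9% for Crabp1 and 19.6% for Aldh1a1, and 3.94% to 7.9% for the 3 receptors. Over all tested genes the medians of these shares were 56.1% for the mouse and 3.33% for the side.

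The levels of the receptors were positively correlated over the retinas, with r = 0.72 for Rara and Rxra, 0.65 for Rarb and Rxra and 0.58 for Rara and Rarb over the 10 libraries. Aldh1a1 and Crabp1 ran at r = -0.16, and each was between -0.20 and 0.32 with the receptors. Among the most like Rxra were Zfp277 (r = 0.98) and Fibcd1 (0.96). Most like Rara were Prnp (0.96), Haus8 (0.94) and Hpca (0.93), and among the most like Rarb were Tbc1d22a (0.94) and Wdr47 (0.94). These are descriptions over 10 libraries of 5 mice that share depth and composition within a library.

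Among other genes of the pathway, too, no call was made. Of 27 further genes of vitamin A uptake, conversion, binding, receptors and coregulators, 25 were in the table and 18 in the fit, 10 of them higher and 8 lower on the right, with a median of 0.0085 log2 units, beside 0.0017 over all tested genes. None passed any of the 3 tests. The lowest unadjusted p for right against left belonged to Fabp5, a fatty acid carrier that also binds retinoic acid (0.20 log2 units, SE 0.12), Rdh10, which oxidises retinol to retinaldehyde (0.09, SE 0.05), and Lrat, which esterifies retinol (0.19, SE 0.13). Rdh10 was at 14.2 ± 0.596 CPM on the right and 13.3 ± 1.19 CPM on the left (SD, n = 5 each).

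Whichever the side, Fabp5 and Lrat had the lowest p of these 18 between fellow eyes (unadjusted p = 0.0152 and 0.0295, adjusted p = 0.734 and 0.933 from limma's variance prior), followed by Stra6, a receptor for retinol-binding protein (unadjusted p = 0.113, adjusted p = 0.987). Fabp5 was at 6.35, 4.34, 7.92, 6.87 and 4.60 CPM in right retinas, against 5.35, 5.38, 4.67, 4.68 and 4.98 CPM in left retinas. Unlike those of the 9 members, most of these values were not whole counts within 0.1. The right retinas of mice 64 and 65, for example, gave 461.73 and 710.42 counts. The cause was not tested. The right retina held more Fabp5 than its fellow eye in mice 61, 65 and 66. The sum of lens genes had the same sign in those mice. In mouse 64 both were lower on the right, by -0.26 log2 units for Fabp5 and -0.95 for the lens genes. In mouse 68 the signs differed, with more of the lens genes but less Fabp5 on the right. The part of lens tissue in the level of Fabp5 was not tested. Lrat, an enzyme of the pigment epithelium, was higher on the right in 4 of 5 mice and lower in mouse 64. Between mice the lowest unadjusted p belonged to the receptors Rarg and Rxrb (0.0487 and 0.0538, limma adjusted p = 0.357 and 0.369) and the corepressor Nrip1 (0.0558, adjusted p = 0.371).

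Of 16 genes known to respond to retinoic acid, 11 were in the table and 8 in the fit, 6 of them higher and 2 lower on the right, with a median of 0.02 log2 units. Over all tested genes 7266 were higher and 6944 lower. None of the 8 passed any of the 3 tests, and none had an unadjusted p under 0.05, where 2.34% of tested genes had one between the sides, 4.71% between fellow eyes and 13.8% between mice. With 8 genes, a count of 0 is near those shares. Among the lowest p between the sides were those of Nr2f2, an orphan nuclear receptor (0.12 log2 units, SE 0.08), and Dhrs3, which reduces retinaldehyde back to retinol (-0.04, SE 0.05). Between fellow eyes they were Stra6, Meis2 and Dhrs3 (unadjusted p = 0.113 to 0.246), and between mice Nr2f1, Dhrs3 and Tgm2 (unadjusted p = 0.0601 to 0.157). Dhrs3 and Stra6 are among the genes that stand in both lists.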

How the data were processed

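Total RNA of 10 retinas, 5 right and 5 left of 5 mice, was sequenced. Per the submitters' processing notes, STAR and Partek were used on the GRCm38 (mm10) genome, and no version, counting rule or filter was given in the sources used here. As to unit, the deposited values were read as CPM from the values themselves: 0.0001 had been added to each, and of the values up to 20 times the smallest step, 90.3% to 91.5% per library were whole multiples of it within 0.1. The step, searched between 0.008 and 0.012 CPM, gives the depth. The 0.0001 was subtracted.

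Genes averaging 1 CPM or more were fitted as log2(CPM + 1) with limma 3.58.1 (R 4.3.3), with variances following the level, the mouse as a block, two-sided and Benjamini-Hochberg adjusted at 0.05. This scale understates the change of low genes. The mean square of the 5 differences between fellow eyes was tested against limma's variance prior, and mice by a moderated F-test. The eyes of a number come from 1 animal, and their deviations correlated at 0.143 to 0.607. Fits were run on simulated data drawn with normal errors from the same model, which cannot test how well that model describes these libraries. Promoters are RefSeq's on GRCm38.p6 and exon lengths GENCODE M21's.

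The members and lists were chosen with earlier results of these data known. All 9 members are named whatever their result, with the 3 genes of lowest p per test in each pathway list and, for each member in the fit, the 3 named genes of highest correlation with it; a few of these genes are not reported here. Alternatives were other pseudocounts (0.1 and 5 CPM), filters (none, 5 CPM), median-of-ratios rescaling, no variance trend, no mouse block, and mice left out. The range of genes from 0.1 to 1 CPM used beside Cyp26b1 was chosen after seeing the data.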

Additional observations from a re-analysis of the deposited data

How the results depend on the processing

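None of the 5 members in the fit passed any of the 3 tests under any alternative run, and none of the 4 low members passed right against left, the comparison that was rerun for them. Under the no replicate block fit the count of right against left stayed at 0 of all tested genes, and no member passed; the other tests need the pairing by mouse and have no such fit. Over all genes, the fellow-eye test called 48 in the fit reported, 19 with a filter of 5 CPM, 8 with no variance trend, 4 without mice 65 and 68, and 23 to 54 leaving out 1 mouse. The test between mice called 81, against 36 with no variance trend, 41 without mice 65 and 68, and 23 to 88 leaving out 1 mouse.

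Of 107 right-minus-left values of members under alternatives, 7 changed sign, all of them differences that had not passed. Leaving out 1 mouse, Rarb ran from -0.0112 (without mouse 66) to 0.153 (0.07 in all mice). Cyp26a1 ran from -0.11 to 0.0181 (-0.03 in all mice), above 0 without mouse 61 or 66. Aldh1a2 ran from -0.0212 to 0.0519 (0.02 in all mice), below 0 without mouse 66 or 68, and was at -0.0294 without mice 65 and 68. Aldh1a3 was at -0.0389 without mice 65 and 68 (0.12 in all mice), and at 0.50 in all mice with 0.1 CPM added. The right-minus-left range over the alternatives was 0.04 to 0.22 for Aldh1a1, -0.27 to -0.06 for Crabp1, 0.04 to 0.36 for Cyp26b1, -0.16 to -0.02 for Rara and -0.14 to -0.04 for Rxra, on log2(CPM + pseudocount). The cause of these changes was not tested. A filter of 5 CPM leaves Rarb, Crabp1 and the 4 low members out. Counts of 1 to 61 per library limit the precision of Aldh1a2, Aldh1a3, Cyp26a1 and Cyp26b1.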
